A study of Mus musculus with 10 samples.

Results

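The genes examined were the cone opsins and the cone phototransduction genes of the mouse retina: Opn1sw, Opn1mw, Arr3, Gnat2, Gnb3, Gngt2, Cnga3 and Cngb3. They were chosen by name, and all 8 were present among the 11702 genes of the deposited tables. RNA of 10 retina libraries from female mice at P36 was compared. Libraries D1, D2 and D3 came from rd10 mice injected with DMSO, libraries H1, H2 and H3 from rd10 mice injected with halofantrine (HAL), an antimalarial drug, and W1 to W4 from WT mice injected with DMSO. The rd10 mutation lies in Pde6b, which encodes a subunit of the rod phosphodiesterase, and the pups came from intercrosses of B6.CXB1-Pde6brd10/J. The strain of the WT mice is not given in the sources used here. All mice received 2 intravitreal injections of 1 μL, at P10 and P24, with halofantrine at 20 μM in the HAL group, and no uninjected retina was analysed here. By the labels, batch 2 held 1 rd10 DMSO library (D3) and 2 rd10 HAL libraries (H2, H3). Batch 1 held the remaining 7, among them every WT library. The titles also carry set names, which W1 to W3 share, D1, D2 and H1 share, and H2 and H3 share, while W4 and D3 each have their own. Genotype within batch 1 and treatment within batch 2 therefore cannot be told apart from the set.

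Cones are the photoreceptors of daylight and colour vision. In a cone, light is absorbed by an opsin, which activates the cone transducin, a G protein made of an alpha, a beta and a gamma subunit. Transducin switches on a phosphodiesterase that lowers cyclic GMP, and the cyclic-nucleotide-gated channel of the outer segment closes; cone arrestin then binds the activated opsin and ends its signal. Most cones of the mouse retina make both the short-wavelength S-opsin (Opn1sw) and the middle-wavelength M-opsin (Opn1mw), in a gradient across the retina. In rd10 mice the mutated gene acts in rods, and cones are lost later than rods.

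Upstream sequences are shown for both opsins, the members called between batches, and for Gnat2 and Arr3 beside them. RefSeq (GRCm38.p6) promoter windows matched 5 of the 8 members, and the 250 bases before the annotated start are printed 5′ to 3′ on the gene's strand for 4 of them. The 2 windows of the fifth, Cnga3, held none of the letters searched and are not printed. Capitals mark the searched letters TAATCC (the core bound by the photoreceptor factors Crx and Otx2), AGGTCA (letters bound by nuclear receptors) and the shorter TAATC, each on both strands; TAATC is contained in TAATCC and was added after the sequences were seen.
Opn1sw (chr6:29380514-29380763, strand -): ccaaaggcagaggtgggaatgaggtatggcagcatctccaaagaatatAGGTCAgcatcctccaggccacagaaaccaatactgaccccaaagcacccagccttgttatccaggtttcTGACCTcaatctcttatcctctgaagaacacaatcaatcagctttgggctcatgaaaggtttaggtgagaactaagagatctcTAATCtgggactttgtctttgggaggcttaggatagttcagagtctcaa
Opn1mw (chrX:74127216-74127465, strand +): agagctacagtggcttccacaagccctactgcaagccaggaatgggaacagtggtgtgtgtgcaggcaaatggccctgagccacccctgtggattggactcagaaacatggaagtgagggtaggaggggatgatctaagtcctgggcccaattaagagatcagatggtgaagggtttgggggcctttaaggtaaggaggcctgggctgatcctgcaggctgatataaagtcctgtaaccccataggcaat
Gnat2 (chr3:108092816-108093065, strand +): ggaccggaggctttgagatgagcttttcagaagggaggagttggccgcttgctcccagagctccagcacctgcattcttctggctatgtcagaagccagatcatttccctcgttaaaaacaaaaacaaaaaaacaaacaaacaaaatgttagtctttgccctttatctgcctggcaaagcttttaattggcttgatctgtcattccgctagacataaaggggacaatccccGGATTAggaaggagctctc
Arr3 (chrX:100605247-100605496, strand +): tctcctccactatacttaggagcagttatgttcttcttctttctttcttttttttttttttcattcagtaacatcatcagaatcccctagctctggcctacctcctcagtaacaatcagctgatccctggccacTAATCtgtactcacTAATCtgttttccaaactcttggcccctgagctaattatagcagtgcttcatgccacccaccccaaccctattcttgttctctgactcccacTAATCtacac
The Opn1sw window held AGGTCA 2 times, at 202 bases before the start and, on the opposite strand, at 132 bases, and TAATC 1 time at 49 bases. A match to TGCTGAC, the Nrl letters, on the opposite strand overlapped the first AGGTCA. Gnat2 held TAATCC 1 time, on the opposite strand, Arr3 held TAATC 3 times, and the Opn1mw window held none of these letters. Over all 32851 promoter windows of the same length, AGGTCA was in 14.0%, TAATCC in 6.25%, TGCTGAC in 3.81% and TAATC in 19.8%. A match is a string of letters and not a measured binding site.

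Gene counts ranged from 15512212 in D3 to 38160436 in D2, and the fewest counts of any member were the 319 of Cnga3 in W3. Levels are given in the authors' deposited CPM, gene counts divided by 1 scaling factor per library. The library labelled WT W4 stood apart from W1 to W3. Gnat1, the rod transducin alpha subunit, measured 14957, 14612 and 16141 CPM in libraries W1 to W3, 499 CPM in W4 and 725 to 2027 CPM in the rd10 libraries. The 11 rod markers summed to 34472 to 37042 CPM in W1 to W3 and to 1749 CPM in W4, and the 8 gliosis markers to 257 to 292 CPM and 1281 CPM. W4 therefore went against its label, and calls of the members against WT are given with and without it.

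Among the 8 members, S-opsin RNA differed most between libraries. It was lower in all 6 rd10 libraries than in W1 to W3, and lower in the rd10 libraries of batch 1 than in those of batch 2. At the deposited scaling M-opsin and cone arrestin were not called against W1 to W3, and Gnb3 and Cnga3 were higher in all 6 rd10 libraries than in W1 to W3. No member (0 of 8) was called between rd10 HAL and rd10 DMSO at an adjusted p under 0.05 in edgeR's quasi-likelihood test, where 0 of 11692 genes were called; DESeq2 called 3 genes and no member. At an unadjusted p under 0.05 the members called were also 0 of 8, with 4.76% of all genes below it. Those 557 genes became 1952 with batch as a term, 185 without H3 and 858 without D3.

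**Figure D1:**
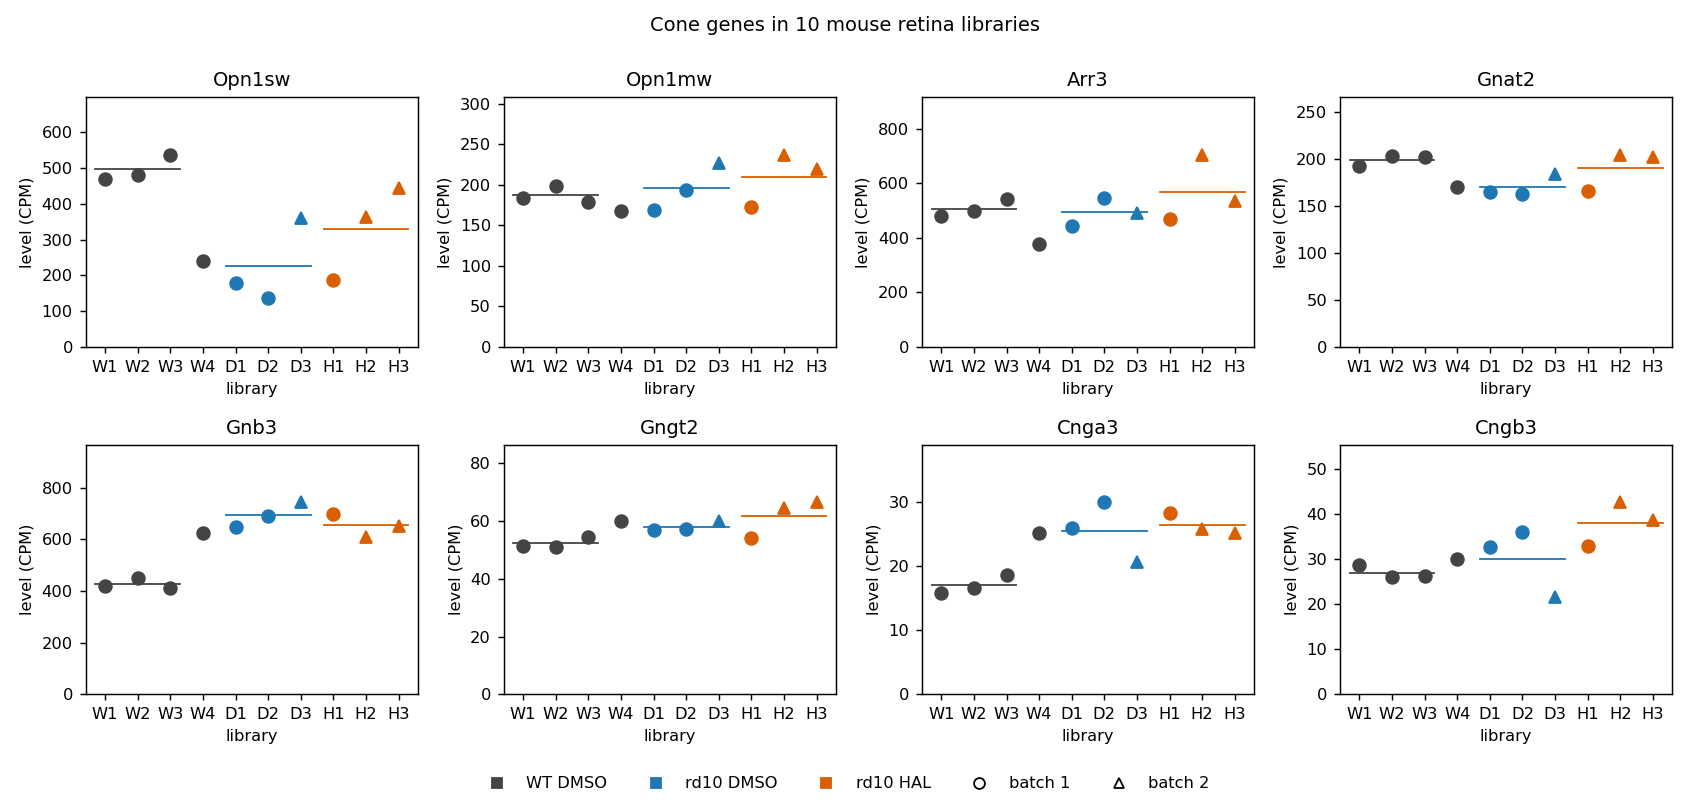
Level of each cone gene in deposited CPM (vertical axis, starting at 0) in each library (horizontal axis); circles are batch 1, triangles batch 2, and horizontal lines are means of W1 to W3, of rd10 DMSO and of rd10 HAL. S-opsin (Opn1sw) lies at 137 to 186 CPM in the batch 1 rd10 libraries, at 361 to 443 CPM in batch 2 and at 469.9 to 536 CPM in W1 to W3.

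S-opsin, Opn1sw (ENSMUSG00000058831), measured 469.9, 481 and 536 CPM in the WT libraries W1 to W3 and 241 CPM in W4. In rd10 DMSO it was at 179 CPM in D1, 137 CPM in D2 and 361 CPM in D3. In rd10 HAL it was at 186 CPM in H1, 363 CPM in H2 and 443 CPM in H3. All 6 rd10 libraries lay below W1 to W3, a position that 1 of 8 members and 32.8% of all genes held. W4 lay between the batch 1 and the batch 2 rd10 libraries. Against W1 to W3, Opn1sw fell by 1.13 on the log2 scale in rd10 DMSO (SE 0.32, 2.18-fold lower, adjusted p = 0.0176, edgeR's quasi-likelihood test). With W4 included the fall was 0.93 (SE 0.40) and was not called (adjusted p = 0.188). The value in rd10 HAL against W1 to W3, which shares these WT libraries, was -0.58 (SE 0.26, adjusted p = 0.0717), and with W4 it was -0.38 (adjusted p = 0.426). Within batch 1, against W1 to W3, Opn1sw fell by 1.64 in D1 and D2 (SE 0.11, adjusted p = 4.59e-06, edgeR's quasi-likelihood test). It fell by 1.40 in H1, a single library for which no p is given. No WT library belongs to batch 2, so that the rd10 libraries of batch 2 have no WT of their own batch. In GENCODE M21, Calu lies across Opn1sw on the opposite strand. Calu measured 94.0 to 105 CPM in W1 to W3 and 113 to 128 CPM in the rd10 libraries. In a bulk library, fewer cones and less opsin RNA in each cone cannot be told apart.

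M-opsin, Opn1mw (ENSMUSG00000031394), measured 184, 198 and 179 CPM in libraries W1 to W3 and 167 CPM in W4. It was at 169, 194 and 227 CPM in D1, D2 and D3, and at 173, 237 and 219 CPM in H1, H2 and H3. The batch 1 rd10 libraries overlapped W1 to W3, and the 3 batch 2 libraries lay above them. The difference between rd10 DMSO and W1 to W3 was 0.09 on the log2 scale (SE 0.11) and was not called in edgeR's quasi-likelihood test (adjusted p = 0.512). With W4 it was 0.11 (SE 0.12). In rd10 HAL it was 0.17 without W4 (SE 0.11, adjusted p = 0.177) and 0.21 with it.

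The balance of the opsins was read within each library as the log2 ratio of Opn1mw to Opn1sw counts, which no scaling between libraries can change. It was -1.35, -1.28 and -1.58 in W1 to W3, so that S-opsin held 2.43 to 2.99 times the counts of M-opsin there. In the library labelled WT W4 the ratio was -0.53. In the rd10 libraries of batch 1 it was -0.08 in D1, 0.50 in D2 and -0.10 in H1, near equal counts or, in D2, more M-opsin than S-opsin. In batch 2 it was -0.67 in D3, -0.61 in H2 and -1.02 in H3, between batch 1 and W1 to W3. All 6 rd10 libraries lay above W1 to W3. The mean ratio was -0.08 ± 0.59 in rd10 DMSO (SD, n = 3) and -1.41 ± 0.16 in W1 to W3 (SD, n = 3), a shift of 1.32 on the log2 scale (p = 0.1 by a two-sided exact permutation test, which can go no lower with 3 libraries a side). With W4 the shift was 1.10 (exact permutation test, two-sided, p = 0.114, where 0.0571 is the smallest for 3 against 4). In rd10 HAL the mean ratio was -0.58 ± 0.46 (SD, n = 3), 0.83 above W1 to W3 (exact permutation test, two-sided, p = 0.1) and 0.61 above WT with W4 (p = 0.171, exact). Between HAL and DMSO the difference was -0.49 (exact permutation test, two-sided, p = 0.4). Within batch 1 it was -0.31 and within batch 2 -0.14, each with a single library on 1 side and no test. Between batches, over the 6 rd10 libraries, the difference was -0.87 (exact permutation test, two-sided, p = 0.1, added after the values were seen), and the batches did not overlap.

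**Figure D2:**
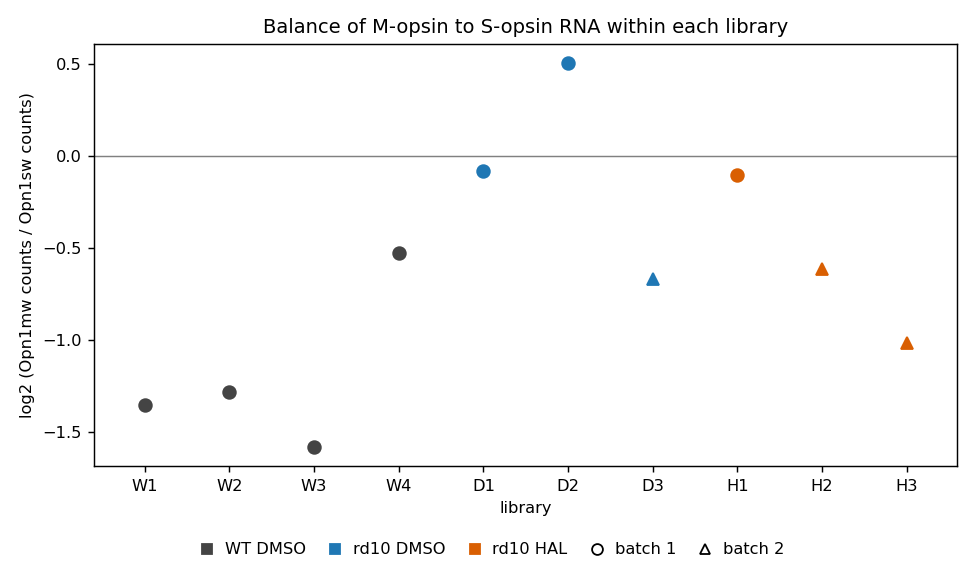
Log2 ratio of Opn1mw to Opn1sw counts (vertical axis) within each library (horizontal axis), coloured by group; circles are batch 1 and triangles batch 2, and the grey line marks equal counts. W1 to W3 lie at -1.58 to -1.28, the batch 2 rd10 libraries at -1.02 to -0.61 and the batch 1 rd10 libraries at -0.10 to 0.50.

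Cone arrestin, Arr3 (ENSMUSG00000060890), whose protein marks all cones in stained retina, measured 481, 497 and 543 CPM in libraries W1 to W3 and 378 CPM in W4, the lowest of the 10 libraries. It was at 443, 547 and 491 CPM in D1, D2 and D3. It was at 467, 704 and 536 CPM in H1, H2 and H3, with H2 the highest of all libraries. The rd10 libraries overlapped W1 to W3 on both sides. The log2 difference of rd10 DMSO from W1 to W3 was -0.02 (SE 0.09, adjusted p = 0.851, edgeR's quasi-likelihood test) and with W4 0.06 (SE 0.15). In rd10 HAL it was 0.17 (SE 0.13, adjusted p = 0.270) and with W4 0.27 (SE 0.18). Between HAL and DMSO it was 0.21 (SE 0.15, adjusted p = 0.883), and without H2 it was 0.03. Within batch 1 it was -0.08 and within batch 2 0.32, where H2 and H3 stand against D3 alone.

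The transducin subunits did not move alike. Gnat2 (ENSMUSG00000009108), the cone alpha subunit, measured 192, 203 and 202 CPM in libraries W1 to W3 and 170.4 CPM in W4. It was at 165, 162 and 184 CPM in D1, D2 and D3 and at 165, 204 and 202 CPM in H1, H2 and H3. The 3 DMSO libraries lay below W1 to W3, while H3 lay among them, H2 just above them and H1 at the level of D1 and D2. In rd10 DMSO it fell by 0.21 on the log2 scale against W1 to W3 (SE 0.07, adjusted p = 0.0257, edgeR's quasi-likelihood test), and the call was lost with W4 (-0.17, adjusted p = 0.245). In rd10 HAL the difference was -0.06 (SE 0.08, adjusted p = 0.558), and with W4 it was -0.00 (adjusted p = 0.978). On the scale of the inner neuron markers it was called lower without W4 (-0.79, adjusted p = 6.46e-05). H1 alone, the single HAL library of batch 1, differed from W1 to W3 by -0.25, and no p is given for a single library.

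Gnb3 (ENSMUSG00000023439), the cone beta subunit, is also made by ON bipolar cells. It measured 421, 451 and 413 CPM in libraries W1 to W3 and 625 CPM in W4. In D1, D2 and D3 it was at 649, 692 and 744 CPM, and in H1, H2 and H3 at 699, 610.1 and 653 CPM. All rd10 libraries lay above W1 to W3, as 2 of 8 members and 31.1% of all genes did. Against W1 to W3 it rose by 0.71 in rd10 DMSO (SE 0.08, 1.64-fold, adjusted p = 0.000195, edgeR's quasi-likelihood test) and by 0.62 in rd10 HAL (SE 0.07, adjusted p = 6.04e-05). With W4 the values were 0.54 (adjusted p = 0.187) and 0.46 (adjusted p = 0.135). Markers of bipolar cells were higher in the same libraries. All 10 were measured and none was at 0, their sum was 1588 to 1684 CPM in W1 to W3, 2633 to 3062 CPM in rd10 DMSO and 2871 to 3161 CPM in rd10 HAL, and without W4 there were 7 of 10 called higher in rd10 DMSO and 9 of 10 in rd10 HAL. Markers of several other cell types were higher too. In rd10 DMSO without W4, 7 of 7 Muller glia, 8 of 8 gliosis, 5 of 5 microglia, 4 of 4 horizontal, 7 of 8 amacrine and 6 of 7 ganglion cell markers were called higher. Of the pigment epithelium markers 1 of 5 was called higher (Pmel), 3 of 3 blood markers were called lower, and 0 of 3 lens markers were called. The part of these cell types in the levels of Gnb3, Gngt2 and Cnga3 was not tested. With libraries scaled to the summed counts of the bipolar, amacrine and ganglion markers, the Gnb3 differences were 0.04 (adjusted p = 0.769) and -0.12 (adjusted p = 0.173) without W4.

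Gngt2 (ENSMUSG00000038811), the cone gamma subunit, measured 51.3, 50.8 and 54.5 CPM in libraries W1 to W3 and 60.1 CPM in W4. It was at 56.7, 57.2 and 59.9 CPM in D1, D2 and D3, and at 54.2, 64.4 and 66.4 CPM in H1, H2 and H3. H1 lay just below W3, and the other rd10 libraries lay above W1 to W3. Against W1 to W3 it rose by 0.17 in rd10 DMSO (SE 0.06, adjusted p = 0.0368, edgeR's quasi-likelihood test; 0.0527 by DESeq2) and by 0.25 in rd10 HAL (SE 0.08, adjusted p = 0.0195), and with W4 neither was called. Within rd10 HAL, H2 and H3 lay above W1 to W3, while the single library H1 lay within their range, at a log2 difference of 0.07. On the scale of the inner neuron markers Gngt2 was lower in rd10 HAL without W4 (-0.48, adjusted p = 0.00149, edgeR's quasi-likelihood test). GENCODE M21 places Abi3, for which no level is given here, across it on the opposite strand. The libraries were strand-specific, and how strand was used in counting is not given in the sources used here.

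The channel subunits were the members with the lowest levels. Cnga3 (ENSMUSG00000026114), the pore-forming subunit, measured 15.8, 16.6 and 18.7 CPM in libraries W1 to W3 and 25.2 CPM in W4. It was at 26.0, 30.0 and 20.6 CPM in D1, D2 and D3 and at 28.2, 25.8 and 25.2 CPM in H1, H2 and H3. All 6 rd10 libraries lay above W1 to W3, with D3 nearest to them. It rose by 0.61 in rd10 DMSO (SE 0.14, 1.53-fold, adjusted p = 0.00751) and by 0.64 in rd10 HAL (SE 0.08, adjusted p = 0.00013) against W1 to W3 in edgeR's quasi-likelihood test. With W4 the values were 0.42 and 0.47, and neither was called. Cngb3 (ENSMUSG00000056494), the modulatory subunit, measured 28.7, 26.1 and 26.3 CPM in libraries W1 to W3 and 30.1 CPM in W4. It was at 32.7, 36 and 21.6 CPM in D1, D2 and D3 and at 33.0, 42.7 and 38.8 CPM in H1, H2 and H3. D3 was the lowest of the 10 libraries and the other 5 rd10 libraries lay above W1 to W3. Against W1 to W3 it was called in rd10 HAL (0.51, SE 0.10, adjusted p = 0.00129, edgeR's quasi-likelihood test), and with W4 it was not (0.46, SE 0.11, adjusted p = 0.135). In rd10 DMSO the difference was 0.18 (SE 0.18, adjusted p = 0.405) and with W4 0.12 (SE 0.17), and within batch 1 alone, without D3 and W4, it was 0.36 (adjusted p = 0.00283). A processed pseudogene, Gm11877, lies across Cngb3 on the same strand.

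Over the members, rd10 DMSO against W1 to W3 gave 3 of 8 called higher (Gnb3, Gngt2 and Cnga3), where 32.3% of all genes were called higher, and 2 of 8 called lower (Opn1sw and Gnat2), where 29.9% were. For rd10 HAL these were 4 of 8 higher (Gnb3, Gngt2, Cnga3 and Cngb3; 35.7% of all genes) and 0 of 8 lower (36.2%). The 0 of 8 lower in rd10 HAL depended on the setting. Without W4, Gngt2 was called lower there on the scale of the inner neuron markers, where Opn1mw and Arr3 were each at -0.56. On that scale Opn1sw and Gnat2 were each called lower too. They were also lower when H1 alone stood for the HAL group, with no calls read from that single library. That is the contrast of batch 1 alone and of the fit with batch as a term, since no WT library belongs to batch 2. The members called without W4 ranged from 4 to 6 over the alternatives in rd10 DMSO and, where all HAL libraries were kept, in rd10 HAL. Over all genes those settings called 7232 to 9113 in rd10 DMSO and, where all HAL libraries were kept, 8171 to 9764 in rd10 HAL. With W4 among the WT libraries no member (0 of 8) was called in either comparison by edgeR's quasi-likelihood test. Over all genes that test then called 0 of 11698 in rd10 DMSO and 1 of 11699 in rd10 HAL. At an unadjusted p under 0.05 there was then 1 of 8 in rd10 DMSO (26.6% of all genes) and 3 of 8 in rd10 HAL (34.6%). DESeq2 called 1 member in each, beside 589 of 11698 genes in rd10 DMSO and 2221 of 11699 in rd10 HAL. The median log2 difference of the members was 0.13 in rd10 DMSO and 0.21 in rd10 HAL without W4, beside -0.01 over all genes in both.

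The direction against WT depended on the scaling for most members. When libraries were scaled to the inner retinal neuron markers, the median of all genes moved to -0.69 in rd10 DMSO and -0.75 in rd10 HAL without W4. On that scale Opn1mw (-0.58), Arr3 (-0.70), Gngt2 (-0.51) and Cngb3 (-0.52) were lower in rd10 DMSO, each called, and Cnga3 was at -0.08. Without any correction of library composition the median moved to 0.19, and Gnat2 was at -0.00 in rd10 DMSO. Opn1mw was then called higher without W4 in rd10 DMSO (0.29, adjusted p = 0.0465) and in rd10 HAL (0.38, adjusted p = 0.0105), as was Arr3 in rd10 HAL (0.38, adjusted p = 0.0258). Opn1sw was below W1 to W3 at every scaling tried, and its difference in rd10 HAL was -1.30 and called (adjusted p = 0.00153, edgeR's quasi-likelihood test) on the scale of the inner neuron markers.

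**Figure D3:**
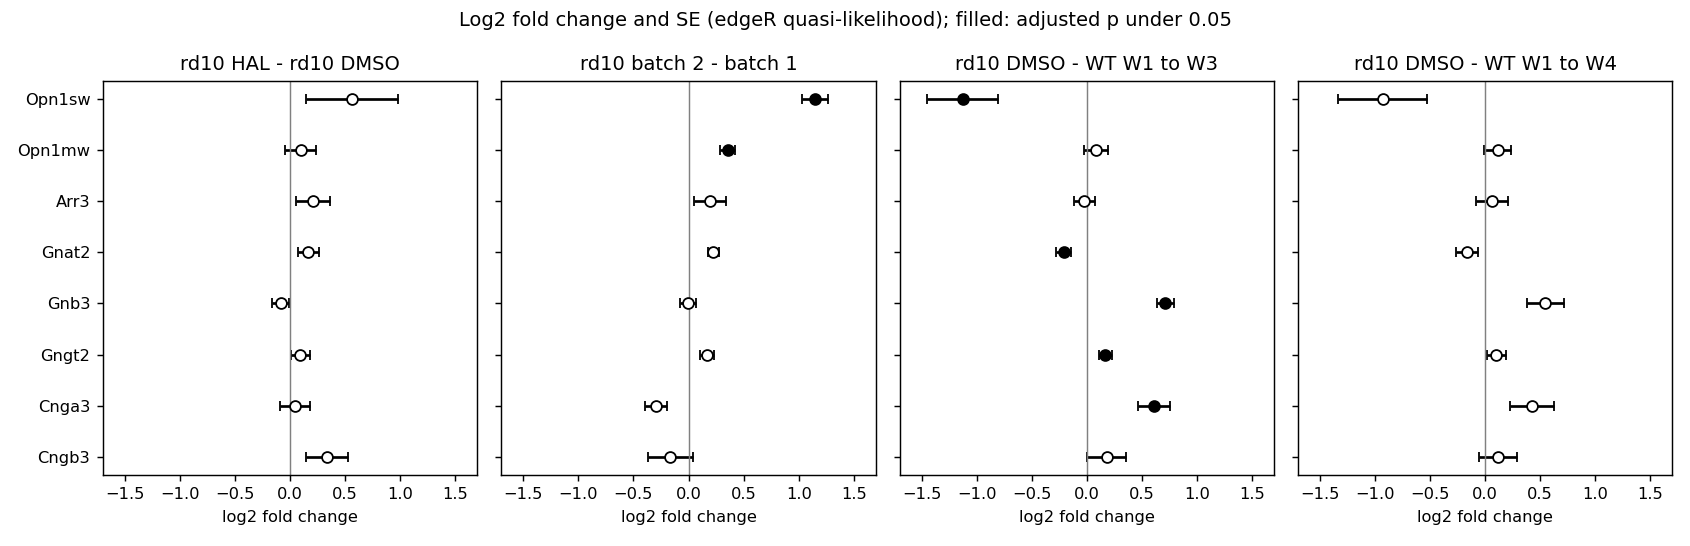
Log2 fold change (horizontal axis) of each cone gene (vertical axis) with its SE as bars, from edgeR's quasi-likelihood test in 4 comparisons; filled points have an adjusted p under 0.05. No point is filled for HAL against DMSO, Opn1sw and Opn1mw are filled for batch 2 against batch 1, and 5 points are filled for rd10 DMSO against W1 to W3 and none once W4 is included.

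For halofantrine itself, the differences from rd10 DMSO were 0.56 for Opn1sw (SE 0.42), 0.33 for Cngb3 (SE 0.19), 0.16 for Gnat2 (SE 0.10), 0.10 for Opn1mw (SE 0.14), 0.09 for Gngt2 (SE 0.09), 0.04 for Cnga3 (SE 0.14) and -0.09 for Gnb3 (SE 0.08) on the log2 scale, with adjusted p from 0.883 to 0.971 in edgeR's quasi-likelihood test. In 0 of 8 members did the 3 HAL libraries lie on 1 side of the 3 DMSO libraries, as 13.2% of all genes did. The median difference was 0.13 over the members and -0.00 over all genes. The HAL group holds 2 batch 2 libraries and the DMSO group 1. For Opn1sw the pooled difference of 0.56 became 0.25 within batch 1 and 0.15 within batch 2, and adding batch to the model gave 0.20. Leaving out 1 library at a time gave 0.29 (without H3) to 1.07 (without D3), none of them called. Each batch has 1 library in 1 of the groups, and no test was run within a batch. Cngb3 was 0.91 higher in H2 and H3 than in D3 within batch 2 and differed by -0.05 within batch 1.

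Between the batches, S-opsin gave the largest difference of the members. Over the 6 rd10 libraries, with treatment as a covariate, Opn1sw was higher by 1.15 in batch 2 (SE 0.12, 2.22-fold, adjusted p = 0.00488, edgeR's quasi-likelihood test) and Opn1mw by 0.35 (SE 0.07, 1.28-fold, adjusted p = 0.0397). These were 2 of 8 members called higher, where 3.16% of all genes were, and 0 of 8 were called lower, where 1.63% were. The 559 genes called in either direction became 2635 without H1 and 88 without D3. Gnat2 differed by 0.23 (SE 0.05, adjusted p = 0.0590), Gngt2 by 0.17 (SE 0.06, adjusted p = 0.151), Arr3 by 0.19 (SE 0.15, adjusted p = 0.416) and Cnga3 by -0.30 (SE 0.10, adjusted p = 0.122). In 5 of 8 members the 3 libraries of one batch lay on 1 side of the other 3, as 28% of all genes did. The Opn1sw difference was 1.20 within DMSO and 1.11 within HAL, in deposited CPM. Without D3 the difference was 1.12 and no longer called (adjusted p = 0.0601), and in a fit of all 10 libraries it was 1.15 with an adjusted p of 0.839. The call of Opn1mw was lost when any of D1, D3, H1, H2 or H3 was left out.

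Rod RNA moved with the same split. The 11 rod markers summed to 2276 to 2474 CPM in batch 1 and to 4350 to 6090 CPM in batch 2, and 11 of 11 were called higher in batch 2. Gnat1 was higher by 1.23 (SE 0.10, adjusted p = 0.00174, edgeR's quasi-likelihood test), at 725 to 814 CPM in batch 1 and 1391 to 2027 CPM in batch 2. No rod marker was at 0 in any library. The part of the remaining rod RNA in the opsin levels was not tested. Markers of some other cell types also differed between the batches. The 10 bipolar markers summed to 3006 to 3161 CPM in batch 1 and 2633 to 2881 CPM in batch 2, with 2 of 10 called lower in batch 2 (Grm6 and Pcp2). The 8 amacrine markers found of 9 summed to 1761 to 1816 CPM and 1535 to 1743 CPM, with 2 of 8 called lower. The 5 microglia markers found of 9 summed to 125 to 143 CPM and 107 to 121 CPM, with 0 of 5 called. Of the 7 Muller glia markers 3 were called lower in batch 2, and their sums overlapped. Of the 8 gliosis markers Lcn2 and Fgf2 were called higher and Gfap lower in batch 2, and the sums overlapped (1446 to 1550 CPM and 1322 to 1546 CPM). The part of these cell types in the opsin levels was not tested. Blood and lens markers overlapped between the batches. The 3 blood markers found of 5 summed to 11.8 to 30.6 CPM in batch 1 and 28.5 to 96.1 CPM in batch 2, and the 3 lens markers found of 7 to 0.285 to 0.473 CPM and 0.208 to 22.4 CPM. What a batch number stands for is not given in the labels.

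Set against their rod counterparts, the cone genes differed less between rd10 DMSO and W1 to W3, at -1.13 to 0.71 on the log2 scale beside -3.66 to -2.40; the difference between the lists was not tested. Rod transducin alpha Gnat1 fell by 3.66 on the log2 scale (SE 0.40), rod arrestin Sag by 2.40 (SE 0.35), the rod channel subunits Cnga1 by 3.11 (SE 0.46) and Cngb1 by 3.10 (SE 0.25), and the transducin subunits Gnb1 by 2.90 and Gngt1 by 2.93. All 6 counterparts were called lower in edgeR's quasi-likelihood test without W4, with a median of -3.02, and none (0 of 6) with W4, where the median was -2.64. Between HAL and DMSO 0 of 6 were called, and between batches 6 of 6 were higher in batch 2.

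**Figure D4:**
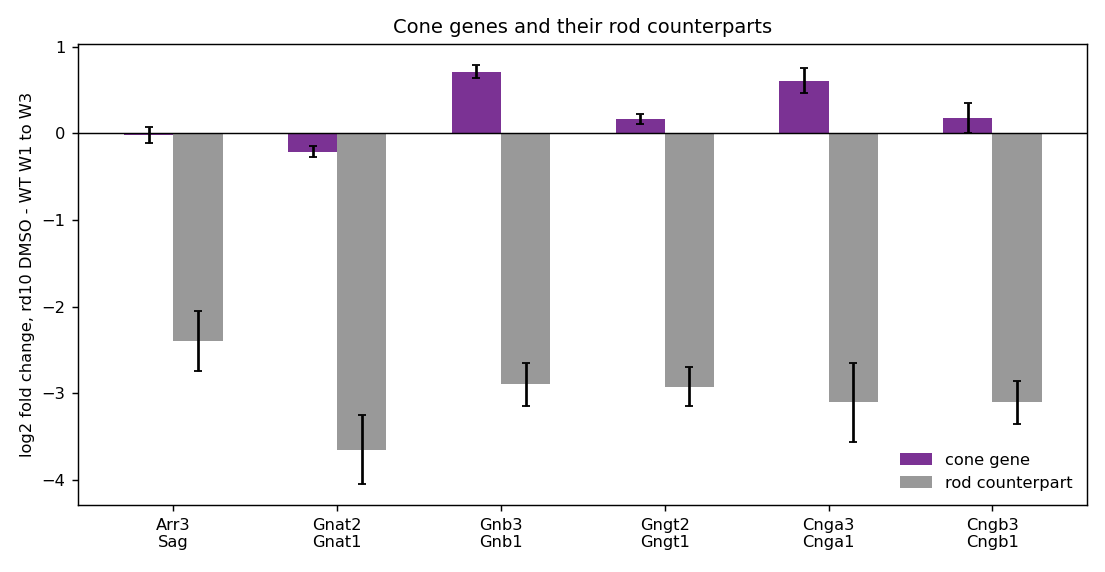
Log2 fold change of rd10 DMSO against W1 to W3 (vertical axis; bars start at 0, with SE) for 6 cone genes and their rod counterparts (horizontal axis), from edgeR's quasi-likelihood test. The rod genes lie at -3.66 to -2.40 and the 6 cone genes at -0.21 to 0.71.

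Of 16 other phototransduction genes, without W4, 12 were called lower in rd10 DMSO, 3 higher and 1 not called. Those higher were Pde6c, the catalytic subunit of the cone phosphodiesterase (0.75, SE 0.08, adjusted p = 0.000211, edgeR's quasi-likelihood test), and the sodium, calcium and potassium exchangers Slc24a2 (0.81) and Slc24a4 (0.62). Pde6c was at 151 to 179.9 CPM in W1 to W3 and at 257 to 291 CPM in the rd10 libraries. The gene not called was Pde6h, the inhibitory subunit of the cone phosphodiesterase, at 129 to 139.6 CPM and 122 to 149 CPM. The 12 lower genes have rod expression or serve rods and cones together, such as Grk1, the opsin kinase of the mouse (-2.63), Guca1b, a guanylate cyclase activator (-4.47), and Rcvrn, recoverin (-2.71). In rd10 HAL the same numbers were called without W4, 3 higher and 12 lower. With W4, and between HAL and DMSO, 0 of 16 were called, and 11 of 16 were higher in batch 2.

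Among 6 genes of cone identity, 4 were called higher in rd10 DMSO against W1 to W3 (Rxrg, Sall3, Ccdc136 and Otop3) and 2 lower (Thrb and Kcne2) in edgeR's quasi-likelihood test. Thrb, the thyroid hormone receptor that cones need for M-opsin, was at 103 to 115 CPM in W1 to W3 and at 50.9 to 63.5 CPM in the rd10 libraries, and fell by 0.87 (SE 0.08, adjusted p = 8.22e-05). Its level in W4, 50.8 CPM, lay below all of them. Rxrg, the retinoid receptor of cones, differed by 0.49 (SE 0.15, adjusted p = 0.0204). In rd10 HAL without W4, 3 were called higher (Sall3, Ccdc136 and Otop3), the same 2 lower, and Rxrg was not called (0.35, adjusted p = 0.0516). The lists of rod, other phototransduction and cone identity genes were fitted with TMM scaling only, and the median gene at -0.69 under the scaling to inner neuron markers is as far from 0 as several of their higher values. No cone identity gene (0 of 6) was called with W4, between HAL and DMSO or between batches.

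Per kilobase of transcript, the scale on which genes can be compared, Arr3 was the highest member in W1 to W3 (357 ± 24.8 CPM per kb, SD, n = 3). Opn1sw followed at 256 ± 15.8 and Gnb3 at 250.3 ± 10.5, which overlapped, then Opn1mw at 161 ± 7.94, Gnat2 at 111 ± 3.93, Gngt2 at 87.5 ± 4.48, Cngb3 at 5.74 ± 0.30 and Cnga3 at 4.93 ± 0.49 (SD, n = 3 for each). In rd10 DMSO Gnb3 stood first (403 ± 29.8) and overlapped Arr3 (347 ± 36.1), followed by Opn1mw (170.4 ± 26.9) and Opn1sw (115 ± 59.9), with Gnat2 at 97.7 ± 9.70 and Gngt2 at 93.4 ± 3.03 (SD, n = 3 for each). Opn1sw thus ranged across the levels of Opn1mw and Gnat2 in these libraries. The ranges of Cnga3 (7.45 ± 1.38) and Cngb3 (6.39 ± 1.60) overlapped there. Within each of D1, D2 and D3, Cnga3 lay above Cngb3, whereas Cngb3 lay above Cnga3 in each of W1 to W3. Cnga3 was also the higher in W4 and H1, and Cngb3 in H2 and H3. In rd10 HAL Arr3 (404 ± 89.2) and Gnb3 (383 ± 26.0) overlapped, as did Cngb3 (8.11 ± 1.03) and Cnga3 (7.61 ± 0.49; SD, n = 3 for each).

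Within a library, Opn1sw was also compared with Arr3, a cone gene that was not called against W1 to W3 with the TMM scaling. The log2 ratio of Opn1sw to Arr3 was -0.04 to -0.02 in W1 to W3 and -0.65 in W4. It was -1.31, -2.0 and -1.33 in D1, D2 and H1 of batch 1, and -0.45, -0.96 and -0.27 in D3, H2 and H3 of batch 2. All rd10 libraries lay below W1 to W3 in this ratio, and the batches did not overlap. The ratio of Opn1mw to Arr3 was -1.60 to -1.33 in W1 to W3 and -1.57 to -1.12 in the rd10 libraries, which overlap. Cnga3 to Arr3 separated as well, in the other direction, at -4.93 to -4.86 in W1 to W3. It was -4.19 to -4.05 in batch 1 and -4.77 to -4.41 in batch 2 of rd10. For Gnat2, Gnb3, Gngt2 and Cngb3 the ratio overlapped between rd10 and W1 to W3. The share of all genes with such a separation was not counted. These ratios were chosen after the values were seen and carry no test.

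All counts of each member came from transcripts that matched GENCODE M21. Opn1sw had 61.5% of its counts over the 10 libraries on Opn1sw-201, at 60.8% to 64.4% in W1 to W3 and 57.5% to 67.4% in the rd10 libraries, which overlap. Opn1mw had 74.6% on Opn1mw-201, Cnga3 92.8% on Cnga3-201 and Cngb3 all of its counts on a single transcript. Arr3-202, annotated as a retained intron, held 48.9% of the Arr3 counts, at 51.5% to 52.5% in W1 to W3 and 45.3% to 49.5% in the rd10 libraries. The protein-coding Arr3-201 held 25.9% to 29.4% in W1 to W3 and 27.6% to 39.2% in the rd10 libraries. Gnat2-201 held 30.1% to 32.0% in W1 to W3 and 32.3% to 38.5% in the rd10 libraries. Gnat2-204, annotated as a retained intron, held 30.2% to 32.8% and 21.8% to 29.7%. The main Gnb3 transcripts, Gnb3-201 and Gnb3-202, overlapped. Gngt2 showed the widest shift. Gngt2-202 held 11.8% to 26.7% in W1 to W3 and 33.8% to 42.9% in the rd10 libraries, and Gngt2-205 held 28.7% to 39.3% and 8.22% to 24.4%. In W4 they held 41.5% and 7.81%. These transcripts are near in length (573 and 563 bases), and the authors' counts per transcript are estimates that divide shared reads.

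The genes most like the members were ranked by Pearson's r of log2 CPM over the 10 libraries, among 11678 genes with a mean log2 CPM of at least 1. For the mean of the 8 members these were Fut11 (r = 0.91), Arxes1 (0.90), Prmt6 (0.88), Frg1 (0.88) and Ly6c1 (0.87). For Opn1sw alone the first was Scg5 (r = 0.97) and for Gnb3 Slc6a8 (r = 0.99). Among the members, Opn1sw was most like Gnat2 (r = 0.94) and least like Cnga3 (r = -0.80). The points share their groups, batches and scaling, so these values describe the libraries and carry no p.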

How the data were processed

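RNA-seq of mouse retina was taken from the processed tables. The authors pseudoaligned reads of strand-specific libraries to the Ensembl mouse transcriptome with kallisto, and the deposited estimated counts per transcript and per gene are unscaled. The deposited CPM signal values are the gene counts divided by 1 factor per library, within 1% of TMM over the 10 libraries, and were used for display. The authors' deposited table of their own halofantrine comparison (fold changes and p-values) was not used.

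The estimated counts, rounded to integers, were filtered with filterByExpr, scaled by TMM and tested with the quasi-likelihood test of edgeR 4.0.16 in R 4.3.3, with Benjamini-Hochberg adjustment over all genes. A gene was called at an adjusted p under 0.05. Standard errors came from the F statistic. HAL against DMSO and batch 2 against batch 1 (treatment as a covariate) used 6 libraries, and each comparison with WT used 7 with W4 and 6 without it. The opsin ratio was tested by exact permutation in scipy 1.17.1. Scripts were tested on simulated data.

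Alternatives were DESeq2 1.42.0, limma-voom (limma 3.58.1), no filter, 3 other scalings, all libraries in 1 fit, a batch term and leaving out each replicate. Total counts were 15512212 to 38160436 per library. Replicates are separate libraries, and p-values measure the spread between them. Gene names matched 11492 of 11702 identifiers. Genes named were the 8 members, their rod counterparts, lists of other phototransduction and cone identity genes, cell type markers, the 5 genes most like the members and transcripts with at least 10% of a member's counts. Members and lists were chosen with earlier results of these data known. Some items are not reported here, and the rod lists were taken without them.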

Additional observations from a re-analysis of the deposited data

Results flagged for a closer look

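For Gnb3 and Gngt2, all HAL libraries lay on one side of the DMSO libraries in batch 1 and on the other side in batch 2, as 18.8% of all 11702 genes did, so that 2 of 8 members is near the share of all genes. The difference between batches was not tested, and neither gene was called between HAL and DMSO. For Gnb3, H1 lay above D1 and D2 in batch 1 while H2 and H3 lay below D3 in batch 2, and the log2 difference of HAL from DMSO was 0.06 in batch 1 and -0.24 in batch 2, so that batch 2 minus batch 1 was -0.297. For Gngt2, H1 lay below D1 and D2 and H2 and H3 lay above D3, at -0.07 and 0.13, and batch 2 minus batch 1 was 0.198. The batch 1 values rest on the single HAL library H1 and the batch 2 values on the single DMSO library D3. For Cngb3 (-0.05 and 0.91), Arr3 (-0.08 and 0.32) and Opn1mw (-0.067 and 0.008) the signs differed too, but H1 lay between D1 and D2.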

How the results depend on the processing

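Of 568 values of single members under another setting, 473 kept their direction and side of the threshold, 14 lost and 28 gained a call and 53 changed sign. No paired analysis was possible because the replicate numbers only follow the order of deposit. HAL against DMSO gave 0 members called under all settings run, where 0 to 7 of all genes were called. For rd10 DMSO against WT and for rd10 HAL against WT, DESeq2 called 1 member each, and leaving out each replicate gave 0 to 5 and 0 to 4, both highest without W4. Over all genes DESeq2 called 589 and 2221, and leaving out W4 called 7280 and 8408. Leaving out any other replicate called 0 genes in rd10 DMSO and 0 or 1 in rd10 HAL. Without W4, the other settings called 4 to 6 members in rd10 DMSO and, where all HAL libraries were kept, in rd10 HAL. They called 7232 to 9113 of all genes in rd10 DMSO and, where all HAL libraries were kept, 8171 to 9764 in rd10 HAL. For rd10 HAL against WT, batch as a term and batch 1 alone both compare the single library H1 with WT. There Opn1sw and Gnat2 were lower without W4, and no calls are read from that single library. In rd10 HAL without W4, Opn1sw and Gnat2 gained a lower call with the inner neuron markers, and Opn1mw and Arr3 a higher one with library size only. In rd10 DMSO without W4, Opn1mw gained a higher call with library size only, Arr3 a lower one with the inner neuron markers, and Cngb3 a higher one without D3. For batch 2 against batch 1 (2 called), scaling to the inner retinal neuron markers called 4, all 10 libraries in 1 fit 0, no treatment term 1, and leaving out each replicate 0 to 3. Over all genes these settings called 2499, 0, 218 and 88 to 2635, beside 559 in the main fit.

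Scaled to the inner neuron markers, the log2 differences that changed sign were, in rd10 DMSO against WT with W4 and without it, Opn1mw -0.40 and -0.58, Gngt2 -0.39 and -0.51, Cnga3 -0.046 and -0.084, Cngb3 -0.39 and -0.52, and, with W4 only, Arr3 -0.48. In rd10 HAL against WT they were Opn1mw -0.38 and -0.56, Arr3 -0.34 and -0.56, Gnb3 -0.071 and -0.12, Gngt2 -0.36 and -0.48, Cnga3 -0.054 and -0.094, and Cngb3 -0.10 and -0.22. Cnga3 in HAL against DMSO was then -0.011 and Gnb3 in batch 2 against batch 1 was 0.15. That scaling by its construction moved the median of all genes, to -0.53 in rd10 DMSO and -0.59 in rd10 HAL against WT with W4. With batch as a term, Opn1mw was -0.028 in HAL against DMSO, -0.0056 and -0.025 in rd10 DMSO against WT with and without W4, and -0.072 and -0.11 in rd10 HAL against WT, where Arr3 was -0.019 and -0.11. With batch 1 libraries alone and without W4, Opn1mw was -0.025 in rd10 DMSO and -0.10 in rd10 HAL, and Arr3 was -0.10 in rd10 HAL. With library size only, Arr3 was 0.18 in rd10 DMSO without W4 and Gnat2 0.15 with W4 and 0.15 without it in rd10 HAL. With upper quartile scaling Arr3 was 0.0043 in rd10 DMSO without W4 and Gnat2 0.020 in rd10 HAL with W4, and with DESeq2 Gnat2 was 0.0021 there. Without a treatment term Cngb3 was 0.025 higher in batch 2.

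Leaving out each replicate gave signs on both sides for Opn1mw (-0.00017 to 0.22) and Cnga3 (-0.085 to 0.18) in HAL against DMSO, for Arr3 (-0.022 to 0.14) and Cngb3 (-0.021 to 0.32) in rd10 DMSO against WT, for Gnat2 (-0.056 to 0.089) in rd10 HAL against WT, and for Arr3 (-0.024 to 0.41), Gnb3 (-0.14 to 0.14) and Cngb3 (-0.68 to 0.30) in batch 2 against batch 1. The cause of the other changes was not tested. The opsin ratio kept its direction when each replicate was left out and, for HAL against DMSO, within each batch. A pseudocount of 2 and transcript sums left it almost unchanged (1.1021 to 1.1024 in rd10 DMSO against WT) and could hardly have changed its direction. Opn1sw was below WT under every setting, at -1.48 to -0.67 in rd10 DMSO and -1.21 to -0.09 in rd10 HAL with W4. The settings applied without W4, the batch test of the opsin ratio, the ratios to Arr3 and the differences between batches within a treatment were chosen after the data were seen. Leaving out a library leaves 2 or 3 in its group. Counts of a member were at least 319 per library, the fewest being those of Cnga3.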
